A study of Mus musculus with 16 samples.

Results

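The genes that encode voltage-gated calcium channels, voltage-gated sodium channels and the sodium leak channel Nalcn were read in AtT-20 cells, a mouse pituitary corticotroph tumour line. A gene was taken when its symbol named a calcium channel pore (Cacna1), an alpha2delta (Cacna2d), beta (Cacnb) or gamma (Cacng) subunit, a sodium channel pore (Scn followed by a number and a), a sodium channel beta subunit (Scn followed by a number and b), or Nalcn. The rule found 41 genes among the 24063 in each of the deposited tables: 10 calcium channel pores, 16 calcium channel auxiliary subunits, 10 sodium channel pores, 4 sodium channel beta subunits and Nalcn. Total RNA was depleted of ribosomal RNA and sequenced in 16 libraries of 6 groups. The first 2 groups were cells expressing 3x flag-Pax7 and cells expressing 3x flag-Neo, both untreated, with 2 libraries each. The other 4 groups were cells expressing 3x flag-ER-Pax7, a fusion of Pax7 with the oestrogen receptor part that 4-hydroxytamoxifen activates, at 0 h (not induced) and after 12, 24 and 96 h of the compound, with 3 libraries each. The labels name neither the promoter that drives these constructs nor whether the cells were clones or mixed populations. They list no cells without ER-Pax7 that received 4-hydroxytamoxifen, so the compound and the activated ER-Pax7 cannot be told apart, and Pax7 and Neo are 1 pair of cell populations. They do not say whether replicates were grown as separate cultures, so each p-value reflects the scatter of these libraries, and that scatter may be technical.

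A voltage-gated calcium channel has a pore-forming Cacna1 subunit that opens on depolarisation, and alpha2delta and beta subunits that bring the pore to the membrane and set its gating. A sodium channel has an Scn pore that carries the upstroke of the action potential, with single-pass beta subunits beside it, while the Nalcn leak channel lets sodium in at rest. Pituitary corticotropes and melanotropes fire action potentials, and the calcium that enters through these channels triggers hormone release. Pax7 is the transcription factor that specifies melanotropes, and the comparisons ask which of these channel transcripts change when the corticotroph line makes or activates it.

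The corticotrope markers were all present but ranged widely in level. Pomc, the hormone precursor of corticotropes, had 73885 to 95211 scaled exon reads across the 12 libraries of ER-Pax7 cells and 2389.5 to 2471 FPKM across the 4 others. Crhr1, the lowest, had 8.90 to 21.5 scaled reads and 0.05 to 0.12 FPKM. Of the 6 corticotrope markers, 1 was higher and 3 lower in Pax7 than in Neo cells (background 18.1% and 18.5%). Crhr1, counted among the 6, had 0.05 FPKM in Pax7 cells against 0.11 to 0.12 FPKM in Neo cells. It reached the 0.1 FPKM needed for testing in the Neo libraries alone, which favours a lower call. At 96 h against 0 h, 4 were higher and 1 lower (16.5% and 17.3%). Pax7 itself had 2.39 and 2.38 FPKM in Pax7 cells, against 0 and 0.01 FPKM in Neo cells. In ER-Pax7 cells it had 1679 to 1760 scaled reads already at 0 h. The 3 melanotrope markers, Pax7 among them, were called higher in both comparisons. In Pax7 against Neo, all 3 reached the 0.1 FPKM needed for testing in the Pax7 libraries alone, which favours a higher call. Pax7 is also the gene introduced there, so its call was fixed by the design. The 7 markers of other pituitary hormone cells summed to at most 3.29 scaled reads in any ER-Pax7 library, most of it Lhb, with Prl, Tshb and Fshb at 0 in the 12 libraries. The 4 skeletal muscle markers summed to between 2.16 and 3.93 scaled reads, from Acta1 and Ckm, with Myod1 at 0. The 5 folliculostellate or fibroblast markers, led by Col1a1, summed to between 18.9 and 24.1 scaled reads at 96 h, against 24.7 to 34.2 at 0 h. The 3 neuronal markers Snap25, Tubb3 and Rbfox3 summed to between 3968 and 4117 scaled reads at 96 h, against 4713 to 4933 at 0 h, and to between 28.96 and 29.30 FPKM in Pax7 cells, against 28.36 to 28.58 FPKM in Neo cells. Snap25 and Tubb3 carried nearly this whole sum, and the part of these markers in the channel results was not tested. The ER-Pax7 libraries held 61.4 M to 88.7 M read mates. The library 12 h replicate 2 stood apart by the ribosomal RNA precursor Rn45s, which took 2.35% of its total against 0.753% to 1.26% in the other 11.

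At the level of exon reads per kb, corrected for composition between libraries by TMM factors and averaged over the 12 ER-Pax7 libraries, the line carried transcripts of every class. The alpha2delta subunit Cacna2d1, the binding site of gabapentin, stood first at 716 scaled reads per kb, with libraries between 645 and 813. Lower levels included Cacng4 at 102, Cacnb3 at 94.6, Cacng7 at 85.3, Scn3a at 72.2 and Cacnb1 at 68.6 scaled reads per kb. The Cacng4 model in the authors' table spans 979 bases, against 3575 exon bases in the GENCODE annotation. Those of Cacng7 and Cacng8 span 822 and 1375 bases, against 2441 and 2345. The levels per kb of these 3 genes, and any sum that holds them, rest on short models. Cacng4, Cacng7 and Cacng8 encode gamma subunits best known as auxiliary subunits of AMPA-type glutamate receptors in the brain.

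Among the calcium channel pores, the P/Q-type Cacna1a had the highest level, 45.6 scaled reads per kb. It was followed by the N-type Cacna1b at 36.9, the L-type pores Cacna1c at 21.6 and Cacna1d at 16.1, and the low-voltage-activated T-type pore Cacna1h at 6.85. The other T-type pores, Cacna1i and Cacna1g, were at 2.99 and 0.834 scaled reads per kb, the retinal pore Cacna1f was at 0.435 and the R-type Cacna1e at 0.220. Among the sodium channel pores, Scn3a stood first. Others were Scn2a1 at 15.7, Scn11a at 14.0, Scn8a at 12.2, Scn9a at 4.98, the muscle Scn4a at 1.04 and Scn1a at 0.288 scaled reads per kb. Nalcn was at 27.6. The remaining tested subunits ran from Cacna2d2 at 24.9 and Scn2b at 21.2, through Scn3b at 13.7, Cacng8 at 8.18, Cacng5 at 6.72, Cacnb4 at 3.46, Cacng2 at 2.72 and Cacna2d4 at 1.94, down to Cacng1 at 1.04 scaled reads per kb.

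**Figure D1:**
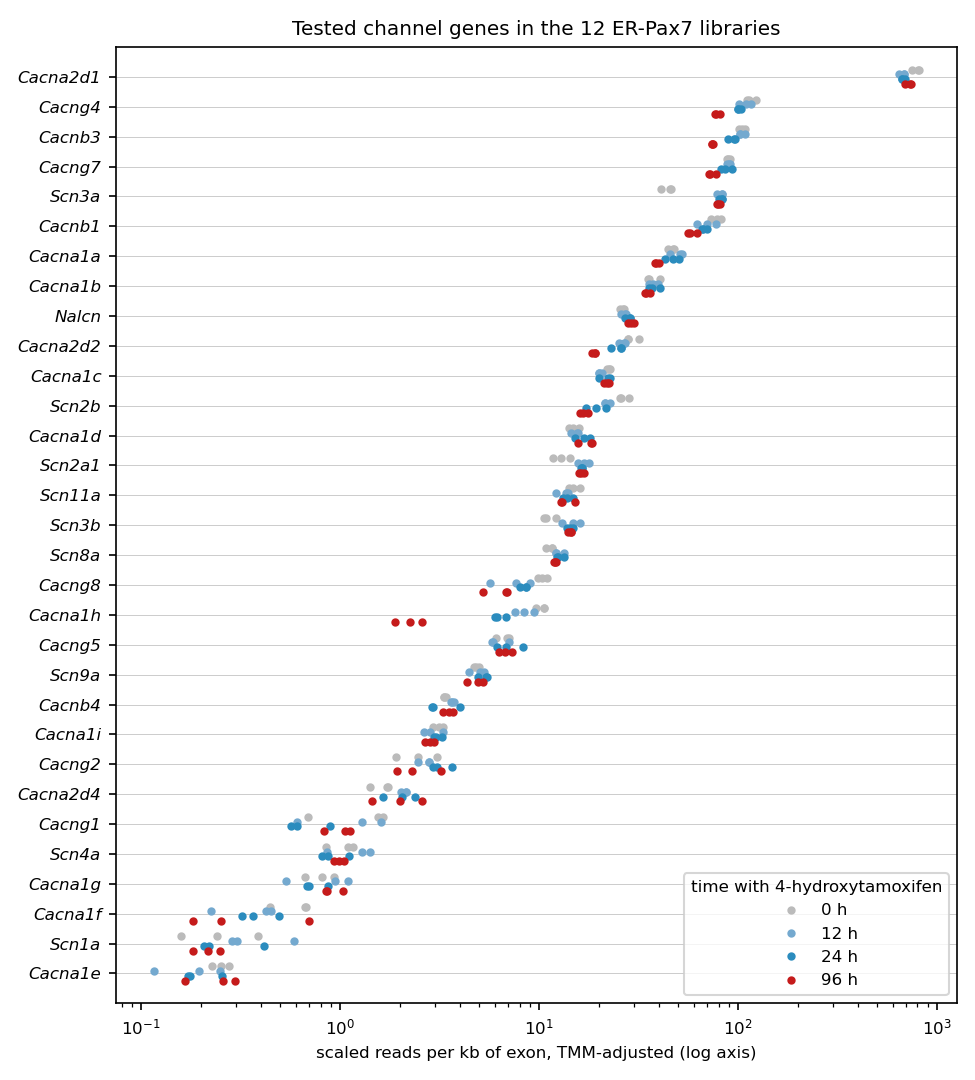
Level of 31 of the 33 channel genes that passed the low-value filter in the 12 ER-Pax7 libraries, in TMM-adjusted scaled reads per kb of exon on a log axis, with 1 point per library, coloured by hours of 4-hydroxytamoxifen. Cacna2d1 lies far to the right of the others, and Scn3a and Cacna1h spread widely by time.

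Of the 41 genes, 33 reached 1 scaled read in at least 3 libraries and were tested in the ER-Pax7 table. The 8 that did not were the skeletal muscle pore Cacna1s, Cacna2d3, Cacnb2, Cacng3, Cacng6, the sensory neuron pore Scn10a, Scn4b and Scn7a. Cacng3 was at 0 in the 12 libraries, and the other 7 never exceeded 1.86 scaled reads. In the Pax7 and Neo table, where values are FPKM over whole gene bodies with introns, 20 of the 41 reached 0.1 FPKM in at least 2 of the 4 libraries. Of these 20, 17 reached it in both groups, and of the remaining 3 Cacna1d passed through the Pax7 libraries alone and Cacna2d2 through the Neo libraries alone. Of the 21 genes not tested there, 13 were tested in the ER-Pax7 table, and 9 of the 21 stood at 0.00 FPKM in the 4 libraries. Because the tables count different parts of the genes, no level was compared between them.

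Between Pax7 and Neo cells, the sodium channel pore Scn3a was 4.62-fold higher in Pax7 cells, and the T-type calcium channel pore Cacna1h was lower, with smaller shifts in 9 further genes. Of the 20 genes tested, 11 differed at an adjusted p under 0.05 (limma, Benjamini-Hochberg over 13393 genes), against a background of 36.6% of the genes tested. They were 5 of 20 higher, against 18.1% of the genes tested, and 6 of 20 lower, against 18.5%. The genes that passed the low-value filter through a single group, where they were higher, are among the 11. The median log2 fold change of the 20 was -0.07, against 0.00 over the genes tested. These are 2 libraries per group, and the count fell in each fit that left out 1 library. Calls over all genes fell in each of them too, so the drop is not particular to the channel genes. Scn3a, Cacna1h and Cacnb3 passed in each of those fits. The size of a fold change of a low gene depends on the pseudocount: with 0.01 and 1 FPKM in place of 0.1, the log2 fold change was 2.17 and 0.85 for Scn3a, -1.44 and -0.24 for Cacna1h, 0.74 and 0.12 for Scn2a1, 0.88 and 0.07 for Cacna1d, -0.68 and -0.08 for Cacna2d2, -0.49 and -0.25 for Scn2b, and 0.53 and 0.16 for Scn3b. In bulk RNA, fewer cells that carry a transcript and less of it per cell cannot be told apart.

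**Figure D2:**
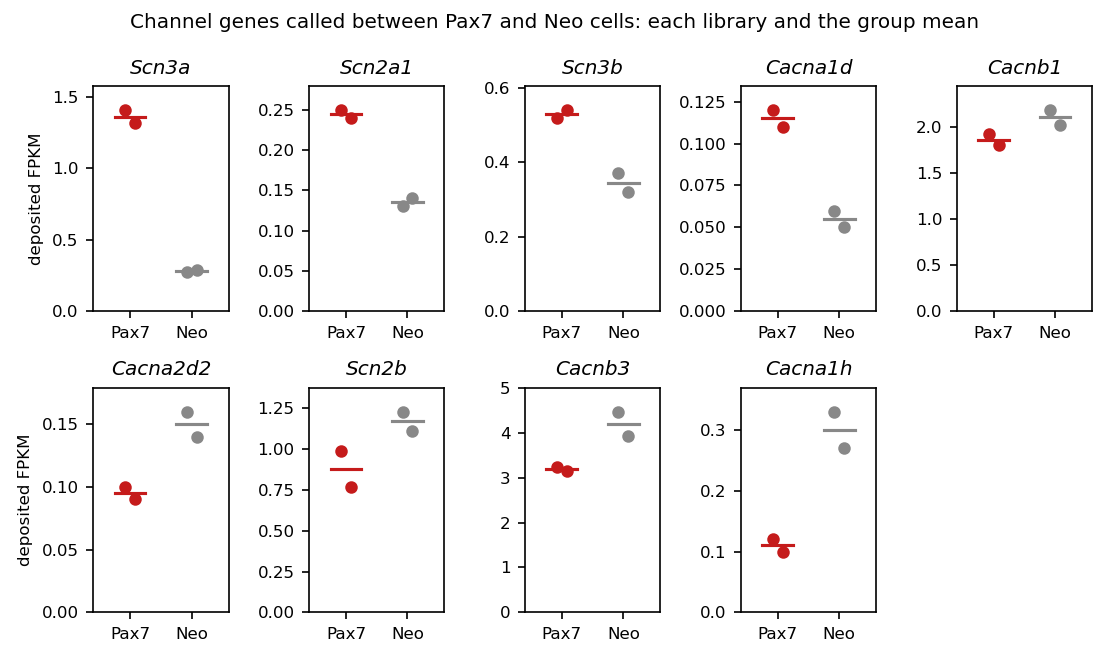
Deposited FPKM over the gene body in each library for 9 of the 11 channel genes called between Pax7 cells (left) and Neo cells (right), with points for libraries and a line for the group mean (n = 2 each). In each of the 9 panels the groups do not overlap, and the widest separation is that of Scn3a, at 1.41 and 1.32 FPKM in Pax7 cells against 0.27 and 0.29 FPKM in Neo cells.

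Over the ER-Pax7 time course, the sodium channel genes Scn3a, Scn2a1 and Scn3b were higher by 12 h of 4-hydroxytamoxifen, while most of the calcium channel genes that fell were called at 24 h or 96 h. At 12 h against 0 h, 5 of 33 tested channel genes were called (limma), against a background of 6.53% of 15188 genes. They were Scn3a, Scn2a1 and Scn3b among the higher genes, where the background is 2.92%, and Scn2b and Cacna2d1 among the lower, where it is 3.61%. At 24 h against 0 h, 9 of 33 were called against 13.6% of the genes tested, 3 higher (background 5.66%) and 6 lower (background 7.92%). At 96 h against 0 h, 16 of 33 were called against 33.8%, 5 higher (background 16.5%) and 11 lower (background 17.3%). Between 96 h and 24 h, 8 of 33 were called against 12.6%, 8 lower (background 6.62%) and 0 higher (background 6.03%). On that last side limma at an unadjusted p under 0.05 gave 1 gene, and edgeR and DESeq2 on the recovered reads gave 0 each.

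The median log2 fold change of the 33 genes was 0.00 at 12 h, -0.04 at 24 h and -0.09 at 96 h, each against 0 h, and -0.07 at 96 h against 24 h. The median over the genes tested was 0.00 in each of the 4 comparisons. The comparisons with 0 h share the same 3 libraries at 0 h, so their values are set side by side and carry no independent support for each other.

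**Figure D3:**
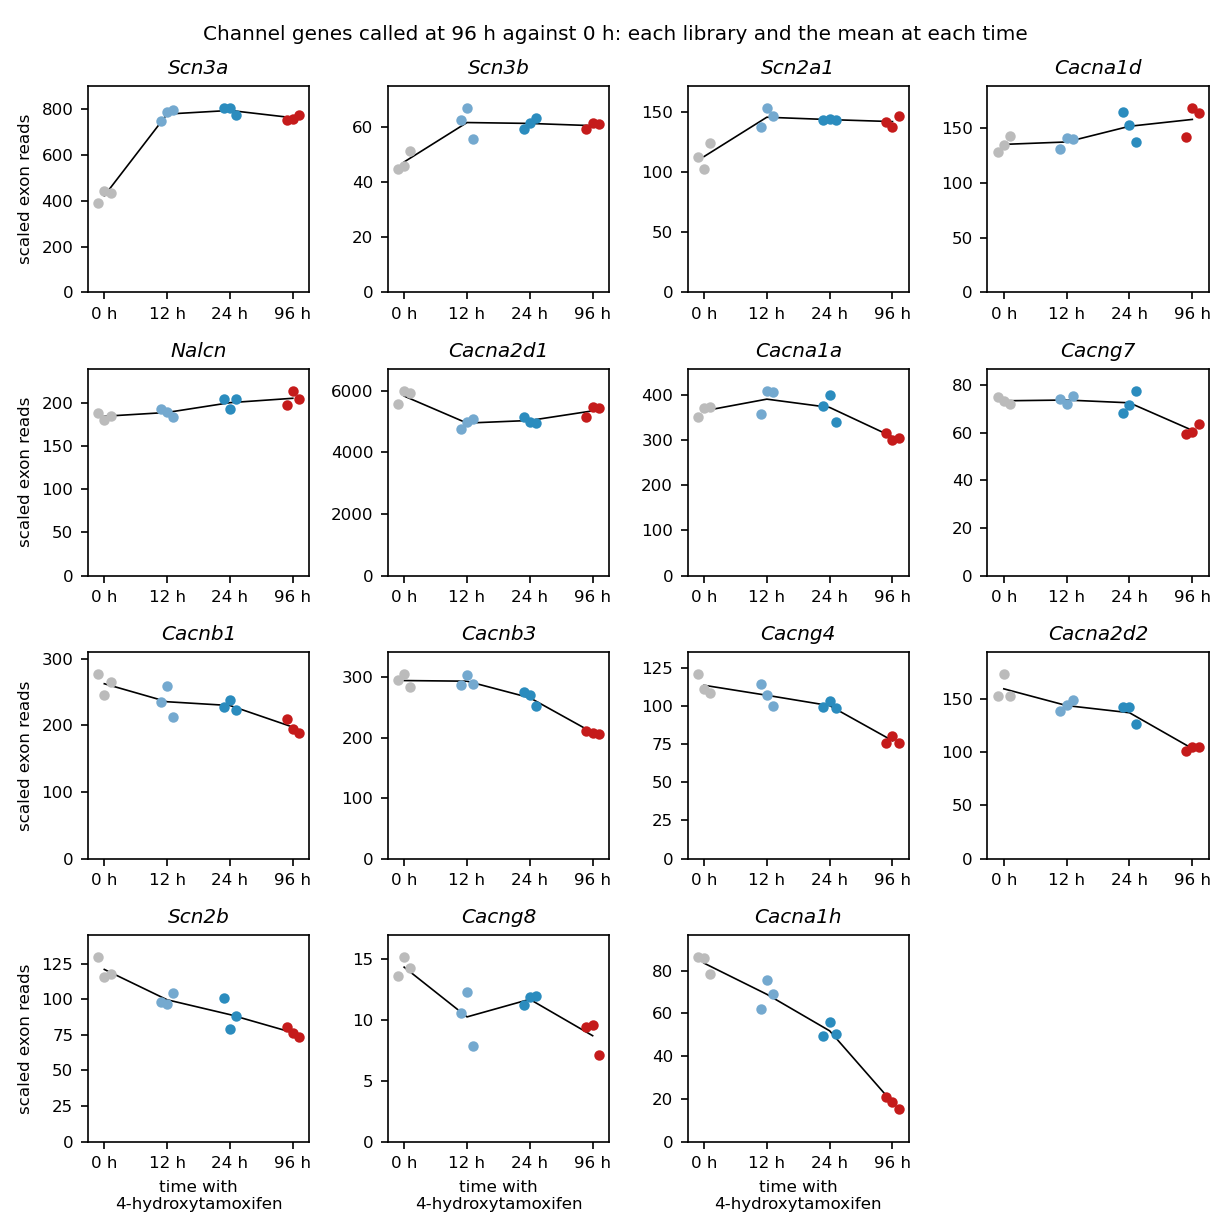
Deposited scaled exon reads in each of the 3 libraries at 0, 12, 24 and 96 h of 4-hydroxytamoxifen for 15 of the 16 channel genes called at 96 h against 0 h, with a line through the means. Scn3a is already high at 12 h, at 749 to 796 scaled reads, and Cacna1h steps down at each time to 15.4 to 21.1 at 96 h.

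Among the sodium channel pores, 2 of 5 tested genes were higher in Pax7 than in Neo cells (background 18.1%), and 2 of 8 were higher at 96 h against 0 h (background 16.5%). These small counts are not read as particular to the class. Scn3a, a brain-type pore most abundant in the embryonic nervous system, had 1.41 and 1.32 FPKM in Pax7 cells, against 0.27 and 0.29 FPKM in Neo cells. Both Pax7 libraries lay above both Neo libraries, and TMM-adjusted means were 1.33 ± 0.0273 FPKM in Pax7 cells and 0.288 ± 0.0213 FPKM in Neo cells (SD, n = 2 each). The log2 fold change was 1.88 with an SE of 0.06 (limma, adjusted p = 0.00137). In the ER-Pax7 cells Scn3a had 389.9, 441 and 434 scaled exon reads at 0 h, 749, 787 and 796 at 12 h, 803, 803 and 774 at 24 h, and 753, 757 and 775 at 96 h. Every library with the compound lay above every library at 0 h, and the 12, 24 and 96 h values overlapped. Against 0 h the log2 fold change was 0.88 at 12 h, 0.90 at 24 h and 0.85 at 96 h, each with an SE of 0.04 (limma, adjusted p = 1.52e-11, 6.06e-12 and 4.45e-12). Between 96 h and 24 h it was -0.05 (limma, adjusted p = 0.527).

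Scn2a1, the mouse symbol of a brain-type pore of axons, lies beside Scn3a on chromosome 2. In mm10, Scn3a runs on the minus strand at chr2:65457118-65567492 and Scn2a1 on the plus strand at chr2:65670445-65767447, so that their starts point away from each other across 103.0 kb. Scn2a1 had 0.25 and 0.24 FPKM in Pax7 cells, against 0.13 and 0.14 FPKM in Neo cells. Its groups did not overlap (limma, log2 fold change 0.50, SE 0.07, adjusted p = 0.0118), but the adjusted p was 0.0603 without Pax7 replicate 1, 0.0636 without Pax7 replicate 2 and 0.0524 without Neo replicate 1. In the ER-Pax7 cells it had 112, 102 and 124 scaled reads at 0 h, 137, 153 and 146 at 12 h, 143, 144 and 143 at 24 h, and 141, 138 and 146 at 96 h. As with Scn3a, the libraries with the compound lay above those at 0 h and overlapped each other. The log2 fold change against 0 h was 0.37 at 12 h, 0.33 at 24 h and 0.33 at 96 h, each with an SE of 0.07 (limma, adjusted p = 0.000996, 0.00138 and 0.000641).

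Scn8a, the main pore of adult axons, Scn11a and Scn9a, both known from pain-sensing neurons, and Scn1a and Scn4a were called in no comparison in which they were tested.

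Summed per kb, the sodium channel pores together were higher with the compound, and Scn3a took more of that sum. The summed level was 102 ± 5.21 scaled reads per kb at 0 h, then 141 ± 5.66 at 12 h, 142 ± 1.14 at 24 h and 135 ± 2.43 at 96 h (SD, n = 3 each). The share of Scn3a in it was 43.7% ± 1.63 at 0 h, then 58.0% ± 0.409 at 12 h, 58.1% ± 0.729 at 24 h and 59.0% ± 0.517 at 96 h (SD, n = 3 each). The libraries at 0 h and those with the compound did not overlap. A share depends on the other members of the sum, so this describes the make-up and carries no test.

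**Figure D4:**
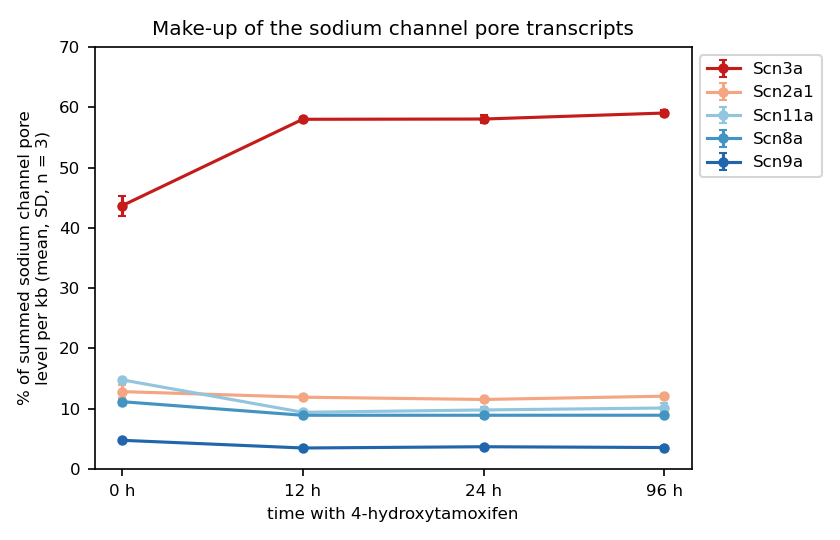
Share of 5 sodium channel pores (Scn3a, Scn11a, Scn2a1, Scn8a and Scn9a) in the summed pore level per kb at 0, 12, 24 and 96 h of 4-hydroxytamoxifen, as the mean with SD bars over 3 libraries. Scn3a stands at 43.7% at 0 h and between 58.0% and 59.0% at the 3 later times.

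The sodium channel beta subunits, which adhere to neighbouring cells and tune the pore, moved in different directions. In both systems Scn2b was lower and Scn3b higher. Scn2b had 0.99 and 0.77 FPKM in Pax7 cells, against 1.23 and 1.11 FPKM in Neo cells. Its groups did not overlap (limma, log2 fold change -0.45, SE 0.11, adjusted p = 0.0416), and the adjusted p was 0.0646 without Pax7 replicate 2, 0.133 without Neo replicate 1 and 0.0978 without Neo replicate 2. With ER-Pax7, Scn2b had 129, 116 and 118 scaled reads at 0 h, 97.9, 96.7 and 104 at 12 h, 101, 78.8 and 88.2 at 24 h, and 80.5, 76.0 and 73.2 at 96 h. The libraries with the compound lay below those at 0 h, and those at 96 h overlapped those at 24 h. The log2 fold change against 0 h was -0.28 at 12 h, -0.46 at 24 h and -0.66 at 96 h, each with an SE of 0.08 (limma, adjusted p = 0.0330, 0.000294 and 1.31e-06). At 12 h the adjusted p was 0.154, 0.0505 and 0.0559 without 0 h replicates 1, 2 and 3, 0.109 without 12 h replicate 1 and 0.0899 without 12 h replicate 2.

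Scn3b was higher in both systems. In Pax7 cells it had 0.52 and 0.54 FPKM, against 0.37 and 0.32 FPKM in Neo cells (limma, log2 fold change 0.44, SE 0.07, adjusted p = 0.0171). The adjusted p was 0.0548 without Pax7 replicate 1, 0.0779 without Pax7 replicate 2 and 0.0622 without Neo replicate 2. Against 0 h its log2 fold change was 0.37 at 12 h, 0.35 at 24 h and 0.34 at 96 h (limma, adjusted p = 0.00657, 0.00547 and 0.00274). Summed per kb, the beta subunits were at 126, 125, 123 and 125 scaled reads per kb at 0, 12, 24 and 96 h, while the share of Scn2b in that sum was 21.1%, 17.5%, 15.9% and 13.5%.

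Among the calcium channel pores, 1 of 5 tested genes was higher (background 18.1%) and 1 lower (18.5%) in Pax7 than in Neo cells. At 96 h against 0 h, 1 of 9 was higher (background 16.5%) and 2 were lower (17.3%). These small counts are not read as particular to the class. At 12 h limma called 0 of 9 (background 6.53%), with 2 at an unadjusted p under 0.05, and edgeR and DESeq2 called 0 each. Cacna1h, the T-type pore that opens at small depolarisations, lies at chr17:25374287-25433783 on the minus strand of mm10. It had 0.12 and 0.10 FPKM in Pax7 cells, against 0.33 and 0.27 FPKM in Neo cells, with no overlap and a 2.88-fold difference of the TMM-adjusted means (limma, log2 fold change -0.98, SE 0.10, adjusted p = 0.00660). In the ER-Pax7 cells it had 86.3, 85.8 and 78.6 scaled reads at 0 h, 62.0, 75.8 and 69.2 at 12 h, 49.2, 55.9 and 50.5 at 24 h, and 21.1, 18.4 and 15.4 at 96 h. The libraries of each time lay below those of every earlier time. The step at 12 h was not called (limma, log2 fold change -0.28, adjusted p = 0.136). At 24 h the log2 fold change against 0 h was -0.69 and at 96 h it was -2.15, each with an SE of 0.10 (limma, adjusted p = 6.50e-05 and 1.90e-12). Between 96 h and 24 h it was -1.45 (limma, adjusted p = 1.14e-08). These values rest on 172 to 966 recovered reads per library. The share of Cacna1h in the summed calcium channel pore level per kb was 7.57% ± 0.597 at 0 h and 1.87% ± 0.305 at 96 h (SD, n = 3 each).

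Reads were counted without strand, and 1.62% of the exon bases of Cacna1h are shared with Tpsg1 on the other strand. Tpsg1 had 0.40, 0.21 and 0.27 scaled reads at 96 h, against 1.06, 1.40 and 1.38 at 0 h, so the reads assigned to it were few beside those of Cacna1h. No exon base of Scn3a is shared with another gene.

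Cacna1d, an L-type pore of endocrine and pacemaking cells, had 0.12 and 0.11 FPKM in Pax7 cells, against 0.06 and 0.05 FPKM in Neo cells (limma, log2 fold change 0.44, SE 0.08, adjusted p = 0.0214). It passed the low-value filter through the Pax7 libraries alone, its values are rounded to 0.01 FPKM, and the adjusted p was 0.0691 without Neo replicate 1 and 0.0958 without Neo replicate 2. At 96 h it had 141, 168 and 164 scaled reads, against 128, 134 and 143 at 0 h, and these groups overlapped. That difference was called by limma (log2 fold change 0.22, adjusted p = 0.0265), but not without 96 h replicate 2 (0.133) or 3 (0.0999), nor without 0 h replicate 1 (0.102) or 2 (0.0666). Cacna1d shares 4.67% of its exon bases with Chdh on the other strand. Chdh had 0.08 and 0.07 FPKM in Pax7 cells against 0.04 and 0.03 FPKM in Neo cells, and 12.21, 13.79 and 17.08 scaled reads at 96 h against 9.87, 8.73 and 13.09 at 0 h, and its part in the Cacna1d values was not tested.

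Cacna1a, the P/Q-type pore of presynaptic terminals, was lower at 96 h, with 316, 301 and 305 scaled reads against 351, 371 and 373 at 0 h. Its log2 fold change at 96 h was -0.25 against 0 h and -0.26 against 24 h, each with an SE of 0.06 (limma, adjusted p = 0.00166 and 0.00356). In Pax7 cells it had 0.27 and 0.26 FPKM, against 0.22 and 0.21 FPKM in Neo cells, which limma did not call (adjusted p = 0.0951). The pores Cacna1b and Cacna1c were called in no comparison, and neither were the low pores Cacna1e, Cacna1f, Cacna1g and Cacna1i in the ER-Pax7 table. The summed calcium channel pore level was 136 ± 4.09 scaled reads per kb at 0 h, then 136 ± 7.26 at 12 h, 134 ± 8.60 at 24 h and 120 ± 1.65 at 96 h (SD, n = 3 each).

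The calcium channel auxiliary subunits that were called were lower in Pax7 than in Neo cells and lower with the compound than at 0 h. Of 7 tested, 3 were lower and 0 higher in Pax7 than in Neo cells, against 18.5% and 18.1% of the genes tested, with a median log2 fold change of -0.19. Among these 3, Cacna2d2 passed the low-value filter through the Neo libraries alone. On the higher side limma gave 0 also at an unadjusted p under 0.05, and no other tool was run on that table. At 96 h against 0 h, 7 of 12 were lower and 0 higher, against 17.3% and 16.5% of the genes tested, with a median of -0.22. There limma at an unadjusted p under 0.05, edgeR and DESeq2 each gave 0 higher. The median over the genes tested was 0.00 in both comparisons, and the neuronal markers Snap25 and Tubb3 were lower at 96 h too, by log2 fold changes of -0.24 and -0.28. In Pax7 against Neo cells limma called neither of these markers, and Snap25 had a log2 fold change of 0.11.

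Cacnb3 encodes the beta subunit most abundant per kb in these cells. It had 3.23 and 3.15 FPKM in Pax7 cells, against 4.47 and 3.93 FPKM in Neo cells, with no overlap (limma, log2 fold change -0.46, SE 0.06, adjusted p = 0.00970). In the ER-Pax7 cells it had 295, 305 and 283 scaled reads at 0 h, 288, 303 and 289 at 12 h, 276, 271 and 252 at 24 h, and 211, 208 and 206 at 96 h. The 12 h libraries lay among those at 0 h, those at 24 h lay below them and those at 96 h lowest. Its log2 fold change was -0.16 at 24 h and -0.50 at 96 h, each against 0 h, and -0.34 at 96 h against 24 h, with an SE of 0.05 (limma, adjusted p = 0.0235, 5.00e-08 and 4.86e-05). The call at 24 h ended without 24 h replicate 3 (limma, adjusted p = 0.102), 0 h replicate 1 (0.0523) or 0 h replicate 2 (0.102).

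Cacnb1, a beta subunit best known from skeletal muscle, had 1.92 and 1.80 FPKM in Pax7 cells, against 2.18 and 2.02 FPKM in Neo cells (limma, log2 fold change -0.24, SE 0.04, adjusted p = 0.0181). The adjusted p was 0.0660 without Pax7 replicate 1, 0.0774 without Pax7 replicate 2 and 0.0686 without Neo replicate 1. Its log2 fold change at 96 h against 0 h was -0.41, with an SE of 0.07 (limma, adjusted p = 5.17e-05). The smaller differences of -0.21 at 24 h against 0 h (limma, adjusted p = 0.0410) and -0.21 at 96 h against 24 h (0.0414) each ended without several single libraries. The adjusted p (limma) reached 0.151 at 24 h without 0 h replicate 1, with 0.0866 without 0 h replicate 3, 0.116 without 24 h replicate 1 and 0.105 without 24 h replicate 3. At 96 h against 24 h it reached 0.153 without 96 h replicate 3, with 0.132 without 96 h replicate 2 and 0.0706, 0.150 and 0.0586 without 24 h replicates 1, 2 and 3. The summed level of the beta subunits was 187, 179, 165 and 136 scaled reads per kb at 0, 12, 24 and 96 h.

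Of the alpha2delta subunits, Cacna2d2, known from the cerebellum, had 0.10 and 0.09 FPKM in Pax7 cells, against 0.16 and 0.14 FPKM in Neo cells (limma, log2 fold change -0.40, SE 0.08, adjusted p = 0.0239). It passed the low-value filter through the Neo libraries alone, and the adjusted p was 0.0855 and 0.105 without Pax7 replicates 1 and 2 and 0.107 and 0.0766 without Neo replicates 1 and 2. In the ER-Pax7 cells it had 153, 173 and 153 scaled reads at 0 h, 138, 144 and 149 at 12 h, 143, 142 and 127 at 24 h, and 101, 105 and 105 at 96 h. The 3 libraries at 96 h lay below the other 9. Its log2 fold change was -0.23 at 24 h and -0.62 at 96 h, each against 0 h, and -0.39 at 96 h against 24 h, with an SE of 0.06 (limma, adjusted p = 0.0155, 1.46e-07 and 0.000265). The call at 24 h ended without 24 h replicate 3 (limma, adjusted p = 0.0799) or 0 h replicate 2 (0.103).

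Cacna2d1 was lower than at 0 h at each time with the compound. It had 5556, 5978 and 5923 scaled reads at 0 h, 4759, 4991 and 5081 at 12 h, 5140.1, 4985 and 4961 at 24 h, and 5134, 5469 and 5417 at 96 h. The libraries with the compound lay below those at 0 h. The log2 fold change against 0 h was -0.24 at 12 h, -0.23 at 24 h and -0.13 at 96 h, with an SE of 0.04 (limma, adjusted p = 0.000332, 0.000300 and 0.0133). The call at 96 h ended without 96 h replicate 1 (limma, adjusted p = 0.0814), 0 h replicate 2 (0.0661) or 0 h replicate 3 (0.0526). Between 96 h and 24 h the log2 fold change was 0.10 (limma, adjusted p = 0.108).

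Of the gamma subunits, Cacng4 had 121, 111 and 109 scaled reads at 0 h, 114, 107 and 99.6 at 12 h, 99.0, 103 and 98.6 at 24 h, and 75.7, 80.1 and 75.9 at 96 h. The 96 h libraries lay below the other 9, and those at 12 h overlapped those at 0 h. Its log2 fold change at 96 h was -0.55 against 0 h and -0.36 against 24 h, each with an SE of 0.07 (limma, adjusted p = 1.41e-06 and 0.000891). In Pax7 cells it had 0.25 and 0.25 FPKM, against 0.30 and 0.27 FPKM in Neo cells, which limma did not call (log2 fold change -0.19, adjusted p = 0.0785). Cacng8 had 13.6, 15.1 and 14.2 scaled reads at 0 h, 10.6, 12.3 and 7.84 at 12 h, 11.2, 11.9 and 12.0 at 24 h, and 9.41, 9.55 and 7.15 at 96 h. The libraries with the compound lay below those at 0 h, but the values rest on only 69 to 175 recovered reads per library. Of its differences from 0 h, that at 96 h was called (limma, log2 fold change -0.67, SE 0.15, adjusted p = 0.00185), while those at 12 h and 24 h were not (adjusted p = 0.0798 and 0.253). In Pax7 cells Cacng8 had 0.30 and 0.24 FPKM, against 0.26 and 0.30 FPKM in Neo cells, which overlapped.

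Cacng7 was lower at 96 h, by a log2 fold change of -0.27 against 0 h (limma, adjusted p = 0.00473) and of -0.23 against 24 h (adjusted p = 0.0281). Its difference between 96 h and 24 h lost the call without 96 h replicate 1 (limma, adjusted p = 0.0973) or 2 (0.0955), and without 24 h replicate 2 (0.0665) or 3 (0.135). The summed gamma subunit level, led by Cacng4 and Cacng7, was 227, 217, 209 and 170 scaled reads per kb at 0, 12, 24 and 96 h. Cacna2d4, Cacnb4, Cacng1, Cacng2 and Cacng5 were called in no ER-Pax7 comparison.

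Nalcn, the sodium leak channel that sets resting excitability, had 198, 214 and 205 scaled reads at 96 h, against 189, 179.8 and 185 at 0 h, with no overlap. Its log2 fold change was 0.15 (limma, adjusted p = 0.0240), and the call ended without 96 h replicate 2 (adjusted p = 0.118), 96 h replicate 3 (0.0597) or 0 h replicate 2 (0.0953). In the other table Nalcn had 0.07 and 0.06 FPKM in Pax7 cells, against 0.05 and 0.05 FPKM in Neo cells, under the low-value filter. Of the proteins that make up the channel complex with it, Unc79 was lower at 96 h against 0 h (limma, log2 fold change -0.17, adjusted p = 0.00561) and Unc80 higher (0.14, adjusted p = 0.0125). None of the 3 tested Nalcn partners was called between Pax7 and Neo cells by limma (background 36.6%), and 1 had an unadjusted p under 0.05.

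Set side by side, Pax7 against Neo and 96 h against 0 h share no library. Of the 20 channel genes tested in both, 10 were called in both, and these 10 had the same direction in each. The genes that passed the low-value filter through a single group, Cacna1d and Cacna2d2 included, are among these 10. That filter favours the direction they showed in Pax7 against Neo. Over the 12992 genes tested in both, 17.9% were called in both, and 87.4% of those had the same direction, so a shared direction is the common case. The 4 higher genes were Scn3a, Scn2a1, Scn3b and Cacna1d, and the 6 lower genes included Cacna1h, Cacna2d2, Cacnb1, Cacnb3 and Scn2b. Cacna1a, Cacna2d1, Cacng4, Cacng7 and Cacng8 were called at 96 h alone, a difference in calls that was not itself tested. The log2 fold change of Scn3a was 1.88 in Pax7 against Neo cells and 0.85 at 96 h against 0 h, and that of Cacna1h was -0.98 in Pax7 against Neo cells and -2.15 at 96 h. The first comparison adds 0.1 FPKM over gene bodies and the second 1 scaled exon read before the log, so the sizes are not on 1 scale.

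**Figure D5:**
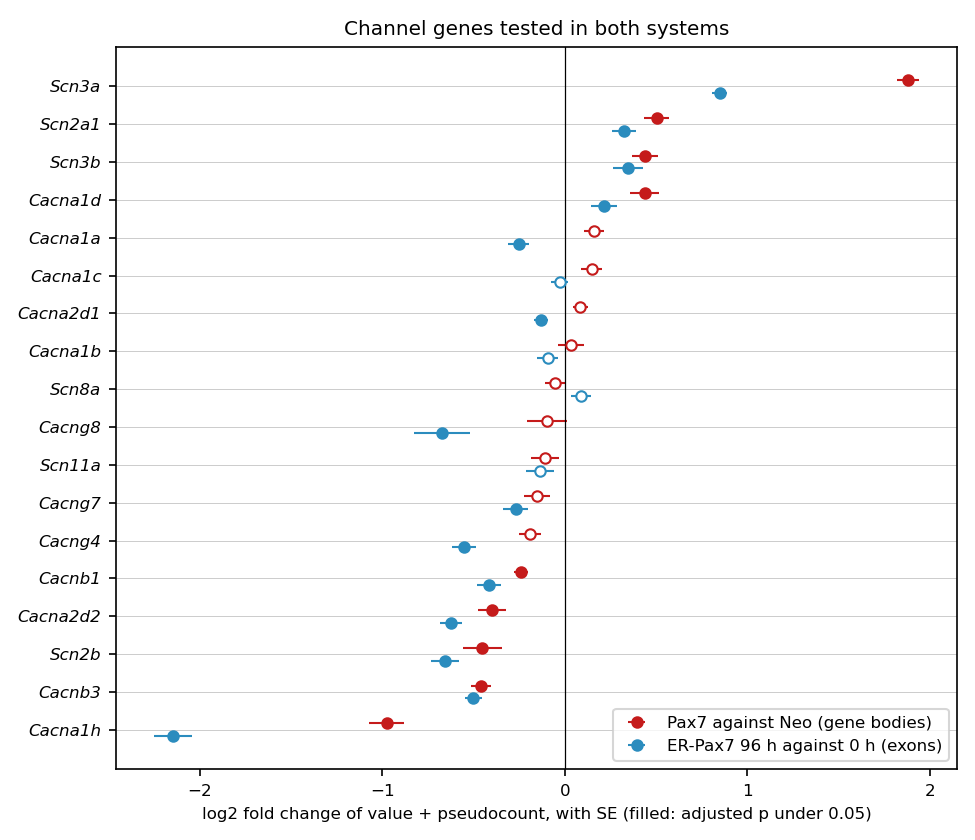
Log2 fold change of value plus pseudocount with its SE for 18 of the 20 channel genes tested in both tables, for Pax7 against Neo cells and for 96 h against 0 h of ER-Pax7 cells, with filled points where the adjusted p (limma) is under 0.05. The 9 genes filled in both lie on the same side of 0 in each, with Scn3a farthest to the right and Cacna1h farthest to the left.

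For the lower genes called in both systems, the stretch of 250 bases before the start of each was read from the RefSeq promoter table (GRCm38.p6). It held 4 of them and matched 31 of the 41 channel genes. No promoter of a higher or uncalled gene is shown for contrast, and a shared cause was not tested. Cacna1h is named only. The stretches lie at chr15:98634517-98634766 on the plus strand for Cacnb3, chr11:98022628-98022877 on the minus strand for Cacnb1, chr9:107399630-107399879 on the plus strand for Cacna2d2 and chr9:45117626-45117875 on the plus strand for Scn2b. Each is given 5′ to 3′ on the gene's strand, and capitals mark matches on either strand to GTCACG, a paired-domain core, to the homeodomain palindrome of TAAT and ATTA set 2 bases apart, to TAATTA, a homeodomain core that can fall within the palindrome, or to CANNTG, an E-box.
Cacnb3: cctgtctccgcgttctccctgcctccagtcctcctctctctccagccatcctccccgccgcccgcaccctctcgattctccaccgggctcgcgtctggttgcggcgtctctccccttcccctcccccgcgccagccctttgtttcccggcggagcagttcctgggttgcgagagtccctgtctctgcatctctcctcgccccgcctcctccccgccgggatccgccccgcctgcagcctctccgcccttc
Cacnb1: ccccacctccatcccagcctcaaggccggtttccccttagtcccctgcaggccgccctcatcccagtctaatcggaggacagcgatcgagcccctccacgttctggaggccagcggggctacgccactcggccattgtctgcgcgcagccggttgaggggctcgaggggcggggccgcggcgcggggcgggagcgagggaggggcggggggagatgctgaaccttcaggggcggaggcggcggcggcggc
Cacna2d2: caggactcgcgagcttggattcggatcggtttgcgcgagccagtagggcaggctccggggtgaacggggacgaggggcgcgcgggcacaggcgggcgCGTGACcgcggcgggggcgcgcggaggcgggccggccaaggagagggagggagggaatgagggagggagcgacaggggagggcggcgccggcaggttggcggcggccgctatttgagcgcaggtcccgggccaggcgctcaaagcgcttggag
Scn2b: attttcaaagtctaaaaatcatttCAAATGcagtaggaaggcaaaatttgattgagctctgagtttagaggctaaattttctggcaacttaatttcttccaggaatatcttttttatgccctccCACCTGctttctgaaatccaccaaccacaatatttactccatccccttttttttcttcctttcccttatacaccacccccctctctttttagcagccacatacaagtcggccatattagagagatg
Cacnb3 and Cacnb1 hold no match, Cacna2d2 holds GTCACG once, read on the other strand, and Scn2b holds 2 E-boxes. Of 32851 promoters of this length in the table, 6.93% hold GTCACG, 4.84% TAATTA, 0.384% the palindrome and 66.2% CANNTG. The 3 calcium channel promoters hold 23, 26 and 34 CpG dinucleotides at a GC content of 70.4%, 73.2% and 74.4% (Cacnb3, Cacnb1 and Cacna2d2), while that of Scn2b holds 1 CpG at 38.4%. The median of the table is 6 CpG and 52.4% GC. A match is a description of these letters and not a binding site.

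Genes that work beside the channels were read from lists chosen with earlier results of these data known. Their counts stand beside a background of 18.1% higher and 18.5% lower in Pax7 against Neo cells and of 16.5% higher and 17.3% lower at 96 h against 0 h, and none is read as particular to its list. Of the anchors and partners of sodium channels, 1 of 6 tested was higher and 1 lower in Pax7 than in Neo cells, and 2 of 8 were higher and 3 lower at 96 h against 0 h. Fgf11, an intracellular growth factor homologue that binds sodium channels, was lower in both, by a log2 fold change of -0.90 in Pax7 cells and -0.87 at 96 h (limma, adjusted p = 0.00979 and 0.000731). The ankyrin Ank3, which anchors sodium channels at the axon initial segment, was higher in Pax7 cells (limma, log2 fold change 0.31, adjusted p = 0.0378). At 96 h the ubiquitin ligase Nedd4l (-0.50) and the homologue Fgf14 (-0.39) were lower (limma, adjusted p = 2.81e-08 and 0.000130).

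Of the regulators that bind calcium channels, 4 of 10 tested were higher and 2 lower in Pax7 than in Neo cells, and 4 of 13 were higher and 3 lower at 96 h against 0 h. They include the RGK family of small GTPases, which hold down channel current. Rem1 of that family (log2 fold change 0.81) and the calcium-binding protein gene Cabp1 (0.33) were higher in Pax7 cells (limma, adjusted p = 0.00669 and 0.00858). At 96 h against 0 h the RGK genes Gem (0.42) and Rem2 (-0.34) went opposite ways, and Rimbp2, which ties channels to release sites, was higher at 0.41 (limma, adjusted p = 0.000330, 0.000166 and 4.60e-06).

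Among genes that release calcium from stores and refill them, limma called 0 of 9 between Pax7 and Neo cells, with 2 at an unadjusted p under 0.05. At 96 h against 0 h, 2 of 13 were higher and 1 lower. The higher were the ryanodine receptor Ryr3 (0.74) and the store pump Atp2a3 (0.15), with adjusted p = 0.00933 and 0.0375 (limma). The inositol trisphosphate receptor Itpr3 (-0.47) was lower, with adjusted p = 1.67e-08 (limma). Ryr3 lay close to the filter of 1 scaled read, at 1.3 to 2 scaled reads at 0 h and 2.86 to 3.7 at 96 h. Its fold change therefore rests on few reads. Of the genes that extrude calcium, 5 of 9 were higher and 1 lower in Pax7 than in Neo cells, and 3 of 12 were higher and 4 lower at 96 h against 0 h. The exchanger Slc24a4 was higher at 96 h (limma, log2 fold change 0.57, adjusted p = 1.38e-05). In Pax7 against Neo cells Slc24a4 (0.63) and the exchanger Slc8a3 (0.38) had adjusted p = 0.00895 and 0.0264 (limma), but both passed the low-value filter through the Pax7 libraries alone and are among the 5 counted as higher. The membrane pump Atp2b1 (0.41) was higher in Pax7 cells, and the pumps Atp2b3 (-0.72) and Atp2b2 (-0.51) were lower at 96 h (limma, adjusted p = 0.00608, 7.77e-06 and 1.13e-08).

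Of the sodium pump genes, 1 of 9 tested was higher and 3 were lower in Pax7 than in Neo cells, and 1 of 11 was higher and 5 were lower at 96 h against 0 h. The pump regulator Fxyd3 was lower by -1.35 in Pax7 cells and -2.27 at 96 h (limma, adjusted p = 0.00338 and 9.01e-13). Fxyd6, of the same family, was lower in Pax7 cells (limma, log2 fold change -0.35, adjusted p = 0.00722).

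The authors' deposited table gave fewer calls than the fits above. At an FDR under 0.05, the authors' deposited table called 0 of the 41 channel genes for Pax7 against Neo, 3 at 12 h, 4 at 24 h and 11 at 96 h, each against 0 h, and 5 between 96 h and 24 h. For Scn3a the authors' deposited table holds a log2 fold of 3.17 with an FDR of 1 in Pax7 against Neo, and 0.85 with an FDR of 1.95e-51 at 96 h. For Cacna1h the authors' deposited table holds 0 with an FDR of 1 in Pax7 against Neo, although the deposited FPKM of that gene do not overlap, and -2.21 with an FDR of 2.38e-29 at 96 h.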

How the data were processed

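The 16 libraries of AtT-20 cells were grouped by the labels. Per the submitters' processing notes, which give no versions, TopHat, HOMER and edgeR were used with the build mm10 (GRCm38). In the ER-Pax7 table the deposited signal values are reads over exons scaled to a common total, per the file headers and the values. In the Pax7 and Neo table the authors deposited FPKM over whole gene bodies, rounded to 0.01. The authors' deposited log2 folds, p-values and FDR were used only for comparison. Counting was without strand, so overlapping genes cannot be told apart. In the ER-Pax7 table the low values are whole multiples of 1 read (100% within 0.1 reads), which gave back 61.4 M to 88.7 M mates per library. Precision from reads covers counting error only, and the errors given are the spread between libraries.

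TMM factors came from edgeR 4.0.16. After division by them, log2 of the value plus 1 scaled read or 0.1 FPKM was tested with limma 3.58.1 in R 4.3.3 (empirical Bayes with trend), with the 12 ER-Pax7 libraries in 1 model. Genes needed 1 scaled read in 3 libraries (15188 genes) or 0.1 FPKM in 2 (13393 genes). P-values were adjusted by Benjamini-Hochberg over all genes tested, with a threshold of 0.05. The smallest p of an exact permutation test is 0.1 for 3 libraries a group and 0.333 for 2 libraries a group, so none was used. Fold changes on this scale understate the change of low genes. Library values in the text are as deposited, and means, SD and levels per kb are divided by the TMM factors. The scripts were tested on simulated data. At 96 h against 0 h, 80% of simulated 1.3-fold and 94.9% of 2-fold changes were called. For Pax7 against Neo these shares were 8.25% and 81.6%. The simulation changed few genes, there 97 and 98 of 13285, whereas 36.6% of the genes tested were called in the data. Its Benjamini-Hochberg cut-off was therefore stricter, and these shares do not measure the sensitivity in the data. A gene not called in Pax7 against Neo may still have changed. The channel genes and the lists were chosen with earlier results of these data known. Values in each library are given for channel genes called with a log2 fold change of at least 0.5 in size in a comparison, and other called genes are given with fewer values or more where a closer reading needed them. Partner lists name up to 3 called genes each. A few genes that these rules name are counted but not reported here. Alternatives were other pseudocounts, filters and scalings, limma without trend, a replicate block, leaving out each library, and, for ER-Pax7, the times compared alone and edgeR and DESeq2 (1.42.0) on the recovered reads.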

Additional observations from a re-analysis of the deposited data

Results flagged for a closer look

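Of the 80 channel, partner and marker genes tested in both systems, 10 had TMM-adjusted values that lay apart in every library one way in Pax7 against Neo cells and the opposite way at 96 h against 0 h. The difference between the systems was not tested for any of them, and the share of such genes over all genes was not counted. With 2 libraries a group the smallest p of an exact permutation test is 0.333, so groups that lie apart carry little weight. In the pairs of log2 fold changes that follow, Pax7 against Neo comes first and 96 h against 0 h second.

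Of the channel genes, the pore Cacna1a had 0.16 and -0.25 (limma, adjusted p = 0.0951 and 0.00166), and the alpha2delta subunit Cacna2d1 had 0.085 and -0.13 (0.176 and 0.0133). The sodium channel pore Scn8a had -0.0515 and 0.09 and was called in neither (0.528 and 0.247). Its deposited FPKM were 0.21 and 0.20 in Pax7 cells and also in Neo cells, so these lay apart only after division by the TMM factors.

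Of the partners, Unc79 had 0.13 and -0.17 (limma, adjusted p = 0.125 and 0.00561), Unc80 -0.0390 and 0.14 (0.569 and 0.0125), and the store pump Atp2a3 -0.17 and 0.15 (0.0861 and 0.0375). The deposited FPKM of Unc80 overlapped, at 0.46 to 0.50 in Pax7 cells and 0.46 to 0.48 in Neo cells. The sodium-calcium exchanger gene Slc8a1 had 0.27 and -0.35 and was called in both (limma, adjusted p = 0.0346 and 6.92e-08).

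Of the markers, the corticotrope genes Neurod1 with -0.20 and 0.30 (limma, adjusted p = 0.0280 and 0.000119) and Pitx1 with -0.23 and 0.25 (0.0412 and 0.00689) were called in both. The neuronal marker Snap25 had 0.11 and -0.24 (limma, adjusted p = 0.0890 and 5.85e-05).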

How the results depend on the processing

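No channel gene that was called, in the main fit or in an alternative, changed direction between them, and genes called in neither were not checked for this. Leaving out 1 library lowered the count for Pax7 against Neo from 11. It gave 4 to 6 calls at 12 h (5 with all libraries), 6 to 9 at 24 h (9), 13 to 15 at 96 h (16), each against 0 h, and 6 to 7 between 96 h and 24 h (8). Calls over all genes fell in each of these fits as well. The other alternatives kept each count within 1.5 times: 9 to 13 for Pax7 against Neo, 4 to 6 at 12 h, 8 to 12 at 24 h, 16 at 96 h in each, and 7 to 9 between 96 h and 24 h. Calls kept under every alternative were 3 of 11, 4 of 5, 6 of 9, 13 of 16 and 6 of 8. Correlations of same-numbered replicates were 0.0375 in Pax7 against Neo and -0.0824 to 0.0829 in ER-Pax7. At 12 h against 0 h they were 0.0826, 0.062 and 0.0532, against -0.0551 to -0.00289 for replicates of different number. Over all genes a replicate block gave 1246 calls at 12 h and 5755 at 96 h, against 992 and 5129 without it. For Pax7 against Neo it gave 3305, against 4906. Whether the numbers pair the libraries was therefore not settled. With a replicate block the counts were 9, 6, 12, 16 and 9, without the Pax7 against Neo call of Scn3b. Calls also ended for Scn2b (Pax7 against Neo with a filter of 0.01 FPKM, no filter, no TMM factors or limma without trend, and 12 h with no filter), Cacnb1 (Pax7 against Neo and 24 h with no TMM factors, and 24 h against 0 h and 96 h against 24 h with no filter), Cacna1d (96 h with no filter) and Cacng7 (96 h against 24 h with only those times fitted), and the cause was not tested. edgeR and DESeq2 on recovered reads added Cacng4 at 24 h, and limma without trend added Cacna1a, Cacna1c and Cacng4 in Pax7 against Neo. Without TMM factors the Pax7 against Neo calls over all genes were 2600 higher and 1241 lower, against 2424 and 2482 with them, at a median log2 shift of 0.07, and the channel genes 5 and 4. With a filter of 0.01 FPKM, Cacng6 was called at 0.13 (limma, adjusted p = 0.0364) on 0.01 against 0.00 FPKM. With no filter Scn4b was called lower at 96 h against 0 h (limma, log2 fold change -0.84, adjusted p = 0.0248) and Cacna1d was not, which leaves the count at 16. edgeR on reads estimated from FPKM was not run, since FPKM rounded to 0.01 do not give whole reads for long genes. Rounding and depth limit Cacna1d and Cacna2d2 in Pax7 against Neo, and Cacng8 in ER-Pax7.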
